A study of Mus musculus with 2 samples.

Results

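The genes of platelet-derived growth factor (PDGF) signalling described here were the 2 receptors Pdgfra and Pdgfrb and the 4 ligands Pdgfa, Pdgfb, Pdgfc and Pdgfd, 6 of the 27998 genes counted. They were chosen by name, and their unique molecular identifiers (UMIs) were summed over each cell class and tissue. Mononuclear cells came from the quadriceps and the diaphragm of C57BL/6J mice, 10 animals in the study, and the cells of several animals were pooled for each tissue after collagenase and dispase digestion, a Lympholyte-M gradient and a sort of viable cells by scatter. The labels name no treatment, age or sex. The data held 1 library per tissue, so the tissue, the pool of animals and the library cannot be told apart, no test between tissues was possible, and all intervals below are 95% intervals that cover counting error only.

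PDGF ligands are secreted dimers that bind 2 receptor tyrosine kinases. PDGF-A, PDGF-B and PDGF-C act on PDGFRα, which marks fibro-adipogenic progenitors (FAPs), the resident mesenchymal cells of muscle interstitium. PDGF-B and PDGF-D act on PDGFRβ, which is known for its role in pericytes and vascular smooth muscle cells, where endothelial PDGF-B recruits mural cells to vessels.

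Cells were classed by raw UMIs of genes other than the PDGF members, with FAPs taken as barcodes with at least 50 UMIs of Dcn (decorin) and at least 1 of Cd34. This gave 2386 FAPs among 5159 quadriceps barcodes and 2047 among 2499 diaphragm barcodes. Smooth muscle cells, gated on Myh11, Acta2 and Tagln, numbered 1186 and 44. The other classes of at least 20 cells were, in quadriceps, 214 B cells, 194 satellite cells, 146 Schwann cells, 118 T cells, 69 NK cells, 56 macrophages and monocytes, 55 endothelial cells and 28 tenocytes, and in diaphragm 59 T cells and 43 B cells. In each of these classes 5 of 5 markers that the gate did not use were past 2-fold over all other barcodes of the library (for FAPs Gsn, Clec3b, Col3a1, Ly6a and Dpt). Only 5 quadriceps barcodes met the pericyte gate. Over 5% of the UMIs were mitochondrial in 99.6% of quadriceps smooth muscle cells and in all 44 of diaphragm. In FAPs the shares were 23.0% and 22.0%. In quadriceps the share was 88.7% in satellite cells, 87.7% in Schwann cells, 85.7% in tenocytes, 85.5% in B cells and 80.0% in endothelial cells. T cells had 76.3%, macrophages and monocytes 21.4% and NK cells 8.70%. In diaphragm B and T cells had 90.7% and 79.7%. The part of these differences in the results between the classes was not tested. Levels are given as UMIs per 1000000 UMIs of the class (CPM).

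The sequences upstream of the starts of 4 members are shown for reference beside the levels, since Pdgfra was highest in FAPs and Pdgfa in smooth muscle cells, and Pdgfc and Pdgfd varied between groups of FAPs. Each window holds the 250 bases before a RefSeq start on GRCm38.p6, 5′ to 3′ on the strand of the gene, at chr5:75152001-75152250 (plus strand, Pdgfra), chr5:138994945-138995194 (minus strand, the outer of 2 Pdgfa starts), chr3:81036166-81036415 (plus strand, Pdgfc) and chr9:6168236-6168485 (plus strand, Pdgfd). Capitals mark matches on either strand to the GC box, the TATA box, the CCAAT box or the CArG box.
Pdgfra: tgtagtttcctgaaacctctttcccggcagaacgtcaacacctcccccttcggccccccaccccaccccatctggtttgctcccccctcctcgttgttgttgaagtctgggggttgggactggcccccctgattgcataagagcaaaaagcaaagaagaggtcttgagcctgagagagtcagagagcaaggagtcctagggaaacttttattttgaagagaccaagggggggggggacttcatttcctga
Pdgfa: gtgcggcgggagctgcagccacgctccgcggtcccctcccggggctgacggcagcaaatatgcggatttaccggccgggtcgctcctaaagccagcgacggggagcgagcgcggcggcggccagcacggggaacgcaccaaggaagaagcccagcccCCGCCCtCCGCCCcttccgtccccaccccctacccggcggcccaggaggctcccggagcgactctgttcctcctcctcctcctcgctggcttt
Pdgfc: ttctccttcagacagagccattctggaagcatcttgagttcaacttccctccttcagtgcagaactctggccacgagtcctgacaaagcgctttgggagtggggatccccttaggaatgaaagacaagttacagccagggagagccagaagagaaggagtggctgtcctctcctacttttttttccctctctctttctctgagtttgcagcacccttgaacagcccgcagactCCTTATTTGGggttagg
Pdgfd: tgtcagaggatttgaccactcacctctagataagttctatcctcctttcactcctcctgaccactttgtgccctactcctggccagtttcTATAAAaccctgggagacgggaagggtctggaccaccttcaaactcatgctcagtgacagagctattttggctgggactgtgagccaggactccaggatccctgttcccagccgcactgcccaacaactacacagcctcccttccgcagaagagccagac
The Pdgfa window was 72.4% G and C and held 2 GC boxes (GGGCGG), a motif found in 32.7% of the 32851 windows of the same length before RefSeq starts. The Pdgfc window held 1 CArG box, found in 1.47% of windows, and the Pdgfd window held 1 match to TATAAA 160 bases before the start, found in 12.4%. The Pdgfra window held no match to any of the motifs. The letters CCAAT, present in 33.8% of all windows, were in none of the 4. The Pdgfa window lies inside the span that GENCODE gives the gene, which reaches 138997370. A match is a description of the sequence and no evidence of a bound factor.

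Of the receptors, Pdgfra (ENSMUSG00000029231, GRCm38 chromosome 5, 75152292 to 75198215, plus strand) was counted almost wholly in FAPs. The sums were 13017 UMIs of 13908 in quadriceps and 13781 of 14178 in diaphragm. The FAP level was 499.7 CPM (491 to 508) in quadriceps and 524.0 CPM (515 to 533) in diaphragm, so the tissues differed by 1.05-fold (1.02 to 1.07), where a gene was called past 2-fold with at least 50 CPM in the higher group, a rule of size and not a test. At least 1 UMI was present in 2243 of 2386 quadriceps FAPs and in 2002 of 2047 diaphragm FAPs. With each cell thinned to 1000 UMIs, the share was 38.0% (36.0 to 40.0) and 40.0% (37.9 to 42.2). Of classes that should lack the gene, T cells had 0 UMIs in 118 quadriceps cells and 2 in 59 diaphragm cells (5.80 CPM), and B cells 4 in 214 quadriceps cells (6.06 CPM) and 0 in 43 diaphragm cells. The median depth of quadriceps T cells was 5053.5 UMIs against 10621 in FAPs.

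Outside FAPs Pdgfra was at 0 to 4 UMIs in every class of at least 20 cells but quadriceps smooth muscle cells, which had 32 UMIs in 1186 cells (1.91 CPM). The Dcn UMIs of these cells, at the Pdgfra to Dcn ratio of FAPs, would bring 27.5, a reckoning from the gene that gates FAPs and so a description only. The level was 262-fold (185 to 383) lower than in FAPs of quadriceps, and 257-fold lower in diaphragm, where 1 UMI was seen (95% interval of the ratio of smooth muscle cells to FAPs 9.9e-05 to 0.0217). Tenocytes, the tendon fibroblasts, had 4 UMIs in 28 cells (15.2 CPM) beside 6538 UMIs of Dcn. FAPs stood 32.8-fold (12.8 to 120) above tenocytes, next in the quadriceps order. Below FAPs the classes did not differ from their neighbours in the order beyond counting error. Apart from tenocytes, these classes needed fewer Dcn UMIs than the FAP gate asks, so their gates kept out barcodes rich in Dcn. How far this lowered Pdgfra outside FAPs was not tested. Barcodes that met several gates were left out of the classes. In quadriceps 113 such barcodes held 516 Pdgfra UMIs (232 CPM), and in diaphragm 9 held 20 UMIs (120 CPM).

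Pdgfrb (ENSMUSG00000024620, GRCm38 chromosome 18, 61045150 to 61085061, plus strand) was present in the 3 mesenchymal classes and near 0 in the other classes of at least 20 cells. In quadriceps it reached 151.6 CPM (146 to 158) in smooth muscle cells, 121.9 CPM (83.4 to 172) in tenocytes and 113.6 CPM (109 to 118) in FAPs. In diaphragm it reached 228.5 CPM (188 to 275) in smooth muscle cells and 129.9 CPM (126 to 134) in FAPs. Tenocytes lay between the other two and differed from neither beyond counting error. The 5 pericytes held 20 UMIs, 10 of them in 1 cell, which is a count and not a level to compare.

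Smooth muscle cells thus had 1.34-fold (1.27 to 1.41) the FAP level of Pdgfrb in quadriceps and 1.76-fold (1.44 to 2.12) in diaphragm. Neither ratio reached 2-fold, while 50.1% and 52.7% of the 3749 and 3675 genes that had 50 CPM or more in either class did. The median gene of these comparisons was lower in smooth muscle cells by 0.34 and 0.29 on the log2 scale (1 CPM added), and relative to it Pdgfrb was higher by more than its plain ratio. The diaphragm ratio passed 2-fold under both other scalings, with a log2 ratio of 1.09 without mitochondrial UMIs (288 against 136 CPM) and 1.06 under median-of-ratios scaling, against 0.81 as counted. In quadriceps these gave 0.65 and 0.76 against 0.42, short of 2-fold. Among barcodes over 5% mitochondrial UMIs alone, the log2 ratio was 0.13 in quadriceps and 0.72 in diaphragm. At 1000 UMIs a UMI was seen in 15.2% (13.2 to 17.4) of quadriceps smooth muscle cells and 10.1% (8.96 to 11.4) of FAPs, and before thinning in 976 of 1186 and 1561 of 2386. Between tissues the level was 1.14-fold (1.09 to 1.20) higher in diaphragm FAPs and 1.51-fold (1.24 to 1.82) higher in the 44 diaphragm smooth muscle cells than in those of quadriceps.

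Pdgfrb was not detected in the 55 endothelial cells, 69 NK cells or 56 macrophages and monocytes of quadriceps, or in the B and T cells of diaphragm. Csf1r, the macrophage receptor gene that follows Pdgfrb on the same strand after 15536 bases, was at 491 CPM in quadriceps macrophages and monocytes. It is a gene of the gate of that class, so its level there is partly set by the gate. Quadriceps B, T, satellite and Schwann cells held 1 or 2 UMIs of Pdgfrb each, with Myh11 UMIs that would bring between 0.605 and 1.02. The 2958 Pdgfrb UMIs of quadriceps FAPs compared with 14.3 reckoned from their Myh11, and the 32 of tenocytes with 0.121.

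Both receptors were thus counted in FAPs, while in smooth muscle cells Pdgfrb had 2542 and 112 UMIs and Pdgfra 32 and 1. In FAPs thinned to 1000 UMIs, 4.27% (3.50 to 5.17) of quadriceps cells had a UMI of each receptor, where the product of the single shares was 3.85%. In diaphragm FAPs the share was 5.08% (4.17 to 6.12) beside a product of 4.20%. Without thinning, 26 of 1186 quadriceps smooth muscle cells had both, 2.19% (1.44 to 3.20) beside a product of 2.08%.

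**Figure D1:**
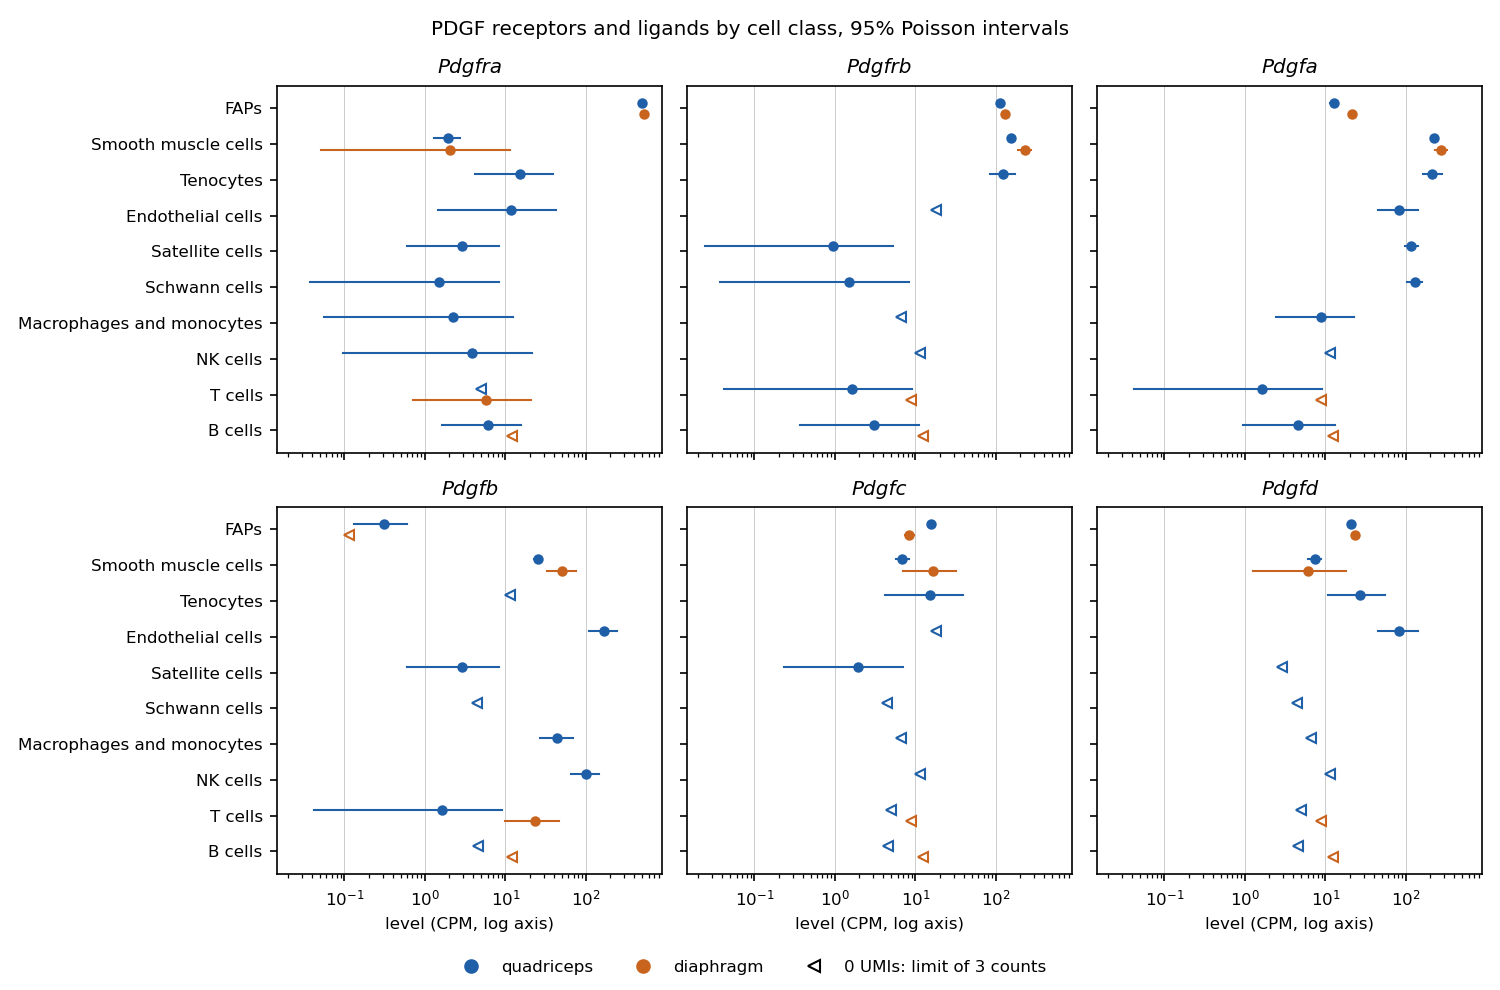
Level of each PDGF receptor and ligand in cell classes of at least 20 cells, in CPM on a log axis, for quadriceps (blue) and diaphragm (orange). Points are summed levels, bars are 95% Poisson intervals, and open triangles mark 0 UMIs at the limit of 3 counts. Pdgfra stands at 499.7 and 524.0 CPM in FAPs and at 15.2 CPM or less elsewhere, Pdgfrb is high in FAPs, smooth muscle cells and tenocytes, and Pdgfb has 8 UMIs in quadriceps FAPs and 0 in diaphragm FAPs.

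Of the ligands, Pdgfa (ENSMUSG00000025856, GRCm38 chromosome 5, 138976014 to 138997370, minus strand), which encodes a ligand of PDGFRα, was high in smooth muscle cells and tenocytes, intermediate in 3 other classes and low in FAPs. Quadriceps smooth muscle cells reached 222 CPM (215 to 230), tenocytes 213 CPM (161 to 277), Schwann cells 129 CPM (103 to 159), satellite cells 117 CPM (96.9 to 139) and endothelial cells 83.0 CPM (45.4 to 139). FAPs had 12.6 CPM (11.3 to 14.1). Smooth muscle cells and tenocytes did not differ beyond counting error. Tenocytes stood 1.66-fold (1.16 to 2.35) above Schwann cells, the next 3 classes did not differ from each other in this order, and endothelial cells stood 6.57-fold (3.55 to 11.2) above FAPs. The counts of satellite cells (122 UMIs), the muscle stem cells, and Schwann cells (86), the glia of peripheral nerve, compared with 1.49 and 0.957 reckoned from their Myh11 UMIs.

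In diaphragm, smooth muscle cells had 275 CPM (231 to 326) of Pdgfa and FAPs 21.1 CPM (19.4 to 23.0). Smooth muscle cells exceeded FAPs 17.6-fold (15.7 to 19.8) in quadriceps and 13.0-fold (10.7 to 15.8) in diaphragm. Pdgfa was past 2-fold in both tissues, as was Pdgfra in the other direction, so that 2 members were called in quadriceps and, with Pdgfb, 3 in diaphragm, where 18.3% and 20.5% of all genes were called higher in smooth muscle cells and 31.8% and 32.2% lower. Among barcodes over 5% mitochondrial UMIs alone, the log2 ratio of Pdgfa was 3.42 in quadriceps against 4.14 over all barcodes. A UMI was present in 1031 of 1186 quadriceps and 43 of 44 diaphragm smooth muscle cells, and at 1000 UMIs in 21.2% (18.9 to 23.7) and 27.3% (15.0 to 42.8), against 1.17% (0.781 to 1.69) and 1.76% (1.23 to 2.43) of FAPs. The gene overlaps 6330403L08Rik on the other strand, so the split of reads between them rests on the strand of the reads. The 5 diaphragm mesothelial cells held 11 Pdgfa UMIs and the 5 pericytes of quadriceps held 6.

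Pdgfb (ENSMUSG00000000489, GRCm38 chromosome 15, 79995874 to 80014977, minus strand), the ligand of both receptors, had its highest quadriceps level in endothelial cells, at 166 CPM (110 to 240) from 28 UMIs in 14 of 55 cells. In diaphragm smooth muscle cells came first of the classes of at least 20 cells, 2.20-fold (0.962 to 5.64) the T cell level. The 6 endothelial cells there had 0 UMIs, with a limit of 120 CPM, too high to place them in this order. In quadriceps NK cells followed with 100.02 CPM (65.3 to 147; 26 UMIs), then macrophages and monocytes with 44.3 CPM (27.0 to 68.4; 20 UMIs) and smooth muscle cells with 25.2 CPM (22.8 to 27.7; 422 UMIs). Endothelial and NK cells did not differ beyond counting error, while NK cells stood 2.26-fold (1.21 to 4.27) above macrophages and monocytes and these 1.76-fold (1.06 to 2.75) above smooth muscle cells. At 1000 UMIs a UMI was seen in 17.4% (9.32 to 28.4) of NK cells, 14.8% (6.62 to 27.1) of endothelial cells and 8.93% (2.96 to 19.6) of macrophages and monocytes.

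FAPs had nearly no Pdgfb, with 8 UMIs in 2386 quadriceps cells (0.307 CPM) and 0 in 2047 diaphragm cells. The ratio of smooth muscle cells to FAPs was 82.0 (41.2 to 191) in quadriceps and at least 447-fold in diaphragm, set against 3 counts in the FAPs. Diaphragm smooth muscle cells had 51.0 CPM (33.0 to 75.3), from 25 UMIs in 16 of 44 cells, and were 2.03-fold (1.30 to 3.03) above those of quadriceps. Pdgfb was the 1 member of 6 called higher in diaphragm smooth muscle cells, where 4.79% of all genes were (6.63% in either direction), and its interval reached below 2-fold. Diaphragm T cells held 8 UMIs in 5 of 59 cells and quadriceps T cells 1 UMI in 118 cells. All members were below 50 CPM in the T and B cells of both tissues, so none was open to a call there. In the 7 macrophages and monocytes of diaphragm 6 UMIs were seen in 4 cells.

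Pdgfc (ENSMUSG00000028019, GRCm38 chromosome 3, 81036416 to 81214040, plus strand), a ligand of PDGFRα that needs proteolytic activation, was low and was counted mainly in the mesenchymal classes. It was at 15.7 CPM (14.3 to 17.3) in quadriceps FAPs, 15.2 CPM (4.15 to 39.0) in tenocytes and 6.86 CPM (5.66 to 8.23) in smooth muscle cells. Diaphragm FAPs had 8.40 CPM (7.33 to 9.59) and smooth muscle cells 16.3 CPM (7.05 to 32.2; 8 UMIs). In quadriceps the ratio of smooth muscle cells to FAPs was 0.436 (0.351 to 0.537), and in diaphragm 1.94 (0.828 to 3.89), an interval that holds 1. At 1000 UMIs it was seen in 1.63% (1.16 to 2.23) of quadriceps FAPs and 0.879% (0.522 to 1.39) of diaphragm FAPs, and before thinning in 253 and 160 cells. No UMI was counted in B, T, NK, Schwann or endothelial cells or in macrophages and monocytes of either library. In quadriceps the limit of a 0 was 17.8 CPM in endothelial cells, above the FAP level. For NK cells it was 11.5 CPM, above the smooth muscle level. In diaphragm the limits of T and B cells were 8.70 and 12.2 CPM, above the FAP level there. These zeros therefore do not show that Pdgfc was restricted to the mesenchymal classes.

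Pdgfd (ENSMUSG00000032006, GRCm38 chromosome 9, 6168584 to 6378850, plus strand), a ligand of PDGFRβ that is likewise activated by proteolysis, was highest in quadriceps endothelial cells, at 83.0 CPM (45.4 to 139; 14 UMIs in 9 of 55 cells). Tenocytes had 26.7 CPM (10.7 to 54.9), FAPs 20.7 CPM (18.9 to 22.5) and smooth muscle cells 7.34 CPM (6.10 to 8.75). Diaphragm FAPs had 23.2 CPM (21.4 to 25.1) and smooth muscle cells 3 UMIs. FAPs thus stood 2.81-fold (2.31 to 3.45) above smooth muscle cells in quadriceps and 3.78-fold (1.29 to 18.4) in diaphragm. Endothelial cells stood 3.11-fold (1.18 to 9.11) above tenocytes, which did not differ from FAPs beyond counting error. Among barcodes over 5% mitochondrial UMIs alone, the log2 ratio of smooth muscle cells to FAPs in quadriceps was -0.64 against -1.49 over all barcodes. No UMI was counted in B, T, NK, satellite or Schwann cells or in macrophages and monocytes. For quadriceps NK cells the limit of a 0 was 11.5 CPM, above the smooth muscle level.

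**Figure D2:**
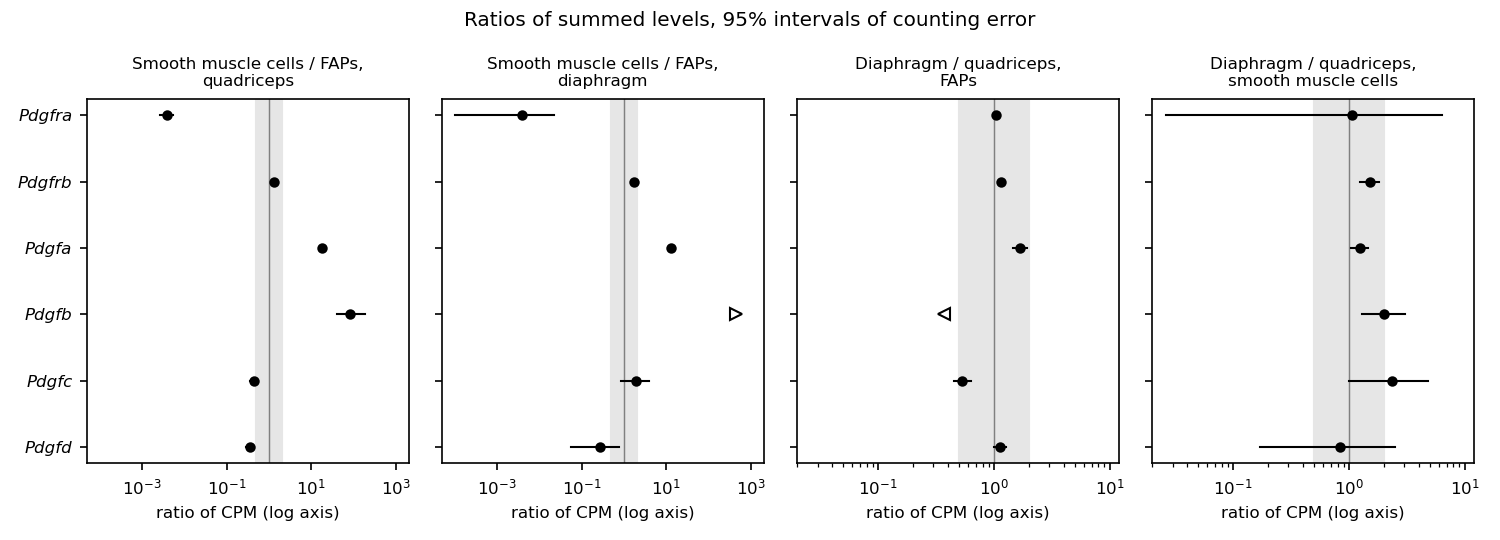
Ratio of the summed CPM of each member between smooth muscle cells and FAPs within each tissue, and between diaphragm and quadriceps within FAPs and within smooth muscle cells, on log axes. Points are ratios with 95% intervals of counting error, open triangles are bounds set against 3 counts, and the grey band spans ratios within 2-fold. Pdgfra lies far to the left and Pdgfa and Pdgfb to the right in both tissues, with Pdgfa at 17.6 and 13.0, and between tissues in FAPs the ratios of 5 members lie within the band, Pdgfc at its edge with 0.534.

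Between the tissues, FAPs had no member called, where 6.81% of 3305 genes were. Pdgfra and Pdgfrb were the members at 50 CPM or more. Below that level, Pdgfa was 1.67-fold (1.46 to 1.92) higher in diaphragm FAPs and Pdgfc was 1.87-fold lower (ratio 0.534, 0.451 to 0.630). The ratio of Pdgfd was 1.12 (0.997 to 1.26), an interval that holds 1. For Pdgfb, 8 UMIs stood against 0, at least 2.69-fold lower in diaphragm. Among barcodes over 5% mitochondrial UMIs alone, the log2 ratio of diaphragm to quadriceps was 1.43 for Pdgfd against 0.17 over all FAPs, and 0.29 for Pdgfa against 0.74. In that split quadriceps FAPs over the limit had 11.4 CPM of Pdgfd and those within it 22.6 CPM, while diaphragm FAPs had 30.8 and 21.5 CPM.

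FAPs were divided by pairs of marker genes at 5 UMIs per 10000 or more, and FAPs that met no pair (519 in quadriceps, 482 in diaphragm) served as the base. Pi16 and Dpp4, markers of stem-like adventitial fibroblasts, picked 484 FAPs of quadriceps and 271 of diaphragm that met no other pair. In quadriceps these had 22.8 CPM of Pdgfc against 4.93 CPM in the base, a ratio of 4.63 (3.02 to 7.36), and 33.4 CPM of Pdgfd against 7.01 CPM, a ratio of 4.77 (3.34 to 6.98). Pdgfra was lower, at 386 CPM against 566 CPM (ratio 0.682, 0.645 to 0.721), and Pdgfa had 3.01 CPM against 14.2 CPM (ratio 0.212, 0.117 to 0.362). In diaphragm the ratios were 0.839 (0.475 to 1.45) for Pdgfc, 1.08 (0.805 to 1.45) for Pdgfd, 0.775 (0.560 to 1.06) for Pdgfa and 0.898 (0.848 to 0.951) for Pdgfra. With FAPs that met several pairs included, the diaphragm ratio of Pdgfc was 1.71 (1.18 to 2.53). No member was called, beside 7.03% of all genes in quadriceps and 1.3% in diaphragm, and the 3 ligands were below the 50 CPM that a call needs.

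Cxcl14 and Hsd11b1, a chemokine and a steroid-converting enzyme, picked 453 FAPs of quadriceps and 282 of diaphragm in which the same ligands were scarce. Pdgfc had 1 UMI in quadriceps and 3 in diaphragm, with ratios to the base of 0.0456 (0.00111 to 0.278) and 0.134 (0.0266 to 0.422). Pdgfd had 8 and 25 UMIs, with ratios of 0.256 (0.103 to 0.559) and 0.393 (0.244 to 0.610), and Pdgfa ratios were 0.379 (0.229 to 0.608) and 0.463 (0.301 to 0.692). Pdgfra was at 640 CPM in quadriceps, 1.13-fold (1.07 to 1.19) the base, and at 536 CPM in diaphragm, 0.976-fold (0.921 to 1.04). No member was called, beside 4.62% and 2.29% of all genes. With FAPs that met several pairs included, the quadriceps ratios were 0.358 (0.160 to 0.750) for Pdgfc and 0.778 (0.474 to 1.27) for Pdgfd.

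Tnmd and Thbs4, genes of tendon cells, picked 36 FAPs of quadriceps and 131 of diaphragm. In quadriceps Pdgfa reached 152 CPM, 10.7-fold (7.58 to 15.0) the base, Pdgfc 103 CPM, 20.8-fold (12.6 to 35.1), and Pdgfd 71.4 CPM, 10.2-fold (6.14 to 16.8), while Pdgfra had 163 CPM (ratio 0.288, 0.225 to 0.363). These 4 of 6 members were called in this comparison, where 14.9% of all genes were. In diaphragm the ratios were 2.24 (1.66 to 3.01) for Pdgfa, 2.27 (1.33 to 3.81) for Pdgfc, 1.69 (1.20 to 2.34) for Pdgfd and 0.993 (0.921 to 1.07) for Pdgfra, and no member was called, beside 2.8% of all genes. The ligands were thus higher than in the base in both tissues, and Pdgfra was lower in quadriceps, a difference between tissues that was not tested. In the tenocytes of quadriceps, which have no Cd34 UMI by their gate, Pdgfa was at 213 CPM and Pdgfra at 15.2 CPM, while Pdgfc (15.2 CPM) and Pdgfd (26.7 CPM) were close to their levels in all FAPs.

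Dmkn and Sbsn, genes of epithelial barrier and of a fibroblast subset, were met together with another pair in all but 1 FAP, so this group and the Stmn4 and Cmah group were described with overlap allowed, a choice made after seeing the data. The 167 quadriceps and 31 diaphragm FAPs that met Dmkn and Sbsn had 210 and 219 CPM of Pdgfra, ratios to the base of 0.370 (0.335 to 0.409) and 0.400 (0.328 to 0.484). Pdgfc was at 49.6 and 71.8 CPM, ratios of 10.1 (6.51 to 16.1) and 10.4 (6.46 to 16.8). The receptor was thus lower and this ligand higher in both tissues. Pdgfd was at 84.4 CPM in quadriceps, a ratio of 12.04 (8.42 to 17.6), and at 25.9 CPM in diaphragm, a ratio of 1.32 (0.683 to 2.35). In quadriceps Pdgfra and Pdgfd were called, beside 15.7% of all genes, and in diaphragm Pdgfra and Pdgfc, beside 17.7%.

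The 128 quadriceps and 53 diaphragm FAPs that met Stmn4 and Cmah had Pdgfc at 46.0 and 40.6 CPM, ratios of 9.33 (5.89 to 15.2) and 5.90 (3.603 to 9.59). Pdgfra was at 275 and 321 CPM there, ratios of 0.486 (0.439 to 0.537) and 0.585 (0.514 to 0.664). Pdgfra alone was called in quadriceps, beside 11.1% of all genes, and no member in diaphragm, also beside 11.1%. Over the 8 groups Pdgfrb lay between 67.7 and 143 CPM in quadriceps and between 75.8 and 146.5 CPM in diaphragm with overlap allowed. The lowest Pdgfrb level in each tissue was that of the Dmkn and Sbsn group.

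In the other 3 groups, taken without overlap, no member was called. Gdf10 and Sfrp1, a growth factor and a secreted Wnt antagonist, picked 76 FAPs of quadriceps and 150 of diaphragm with 546 and 668 CPM of Pdgfra, and Pdgfd ratios of 2.51 (1.25 to 4.76) and 1.35 (0.933 to 1.92). Prg4 and Clu, encoding lubricin and clusterin, picked 289 and 70 FAPs with 656 and 448 CPM of Pdgfra, and Pdgfd ratios of 0.787 (0.409 to 1.45) and 1.64 (1.04 to 2.49). Pdgfc had 1 UMI in the Prg4 and Clu group of quadriceps, a ratio of 0.0700 (0.00171 to 0.426), and a ratio of 1.24 (0.705 to 2.19) with overlap allowed. The shares of all genes called were 5.1% and 2.42% for Gdf10 and Sfrp1 and 3.06% and 1.05% for Prg4 and Clu. Has1 and Tnfaip6, a hyaluronan synthase and a hyaluronan-binding protein, picked 72 diaphragm FAPs, where Pdgfra had 478 CPM, beside 2.73% of all genes called. In quadriceps 20 FAPs met this pair with overlap allowed, and there Pdgfc had 20 UMIs, all in 4 of the 20 cells (ratio 13.2, 7.01 to 24.7), Pdgfd had 0 UMIs and Pdgfra 228 CPM (ratio 0.403, 0.314 to 0.511). Pdgfc and Pdgfra were called, beside 11.4% of all genes, and in diaphragm with overlap no member was, beside 3.72%.

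**Figure D3:**
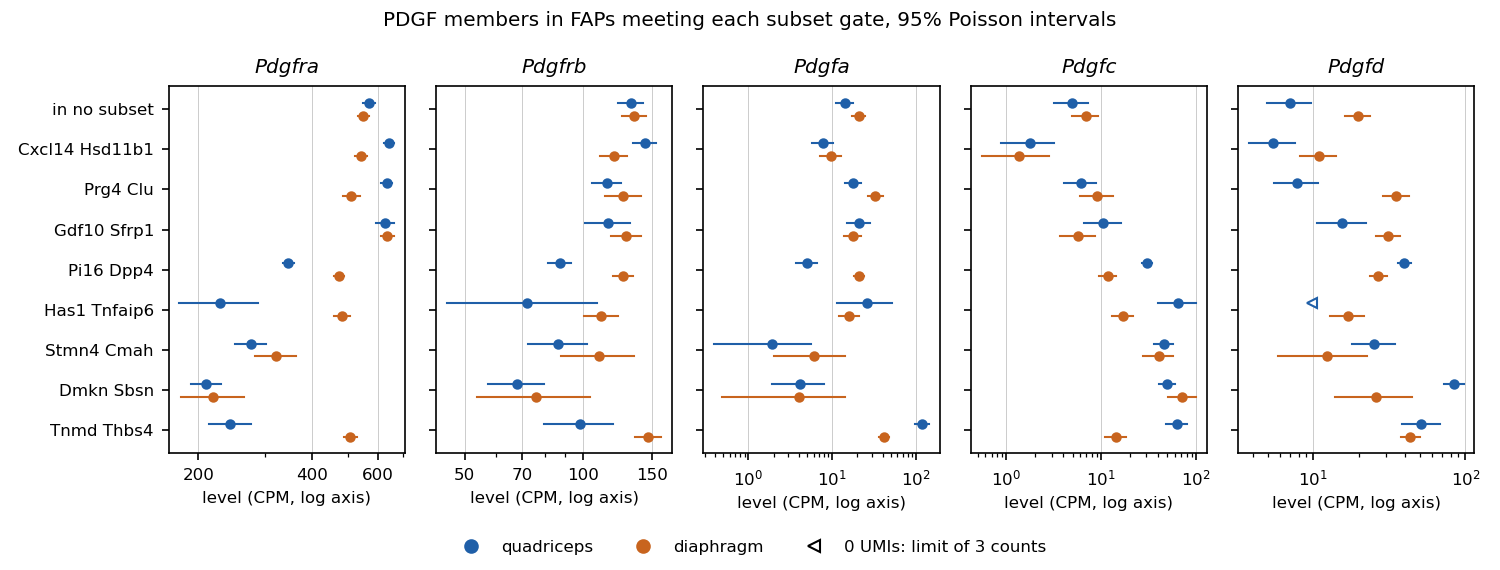
Level of 5 members in FAPs that met each pair of marker genes, with FAPs allowed in several groups, in CPM on log axes whose ranges differ between panels, for quadriceps (blue) and diaphragm (orange). Points are summed levels and bars 95% Poisson intervals, and an open triangle marks 0 UMIs at the limit of 3 counts. The Dmkn and Sbsn group has the lowest Pdgfra, at 210 and 219 CPM, with Pdgfc at 49.6 and 71.8 CPM, and the Cxcl14 and Hsd11b1 group the lowest Pdgfc.

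The other genes of the pathway were taken as a list of 40, of ligand processing and binding, signal transducers, negative regulators and related receptors. Between tissues in FAPs, 20 of the 40 reached 50 CPM, 2 were called higher in diaphragm and 0 lower, where 3.75% and 3.06% of all genes were. Pdgfrl, a gene related in sequence to the PDGF receptors, was at 308 CPM in diaphragm and 81.3 CPM in quadriceps, 3.79-fold (3.61 to 3.98) higher. Socs3, a feedback inhibitor of cytokine signalling, was at 429 and 52.6 CPM, 8.16-fold (7.71 to 8.63) higher.

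Between smooth muscle cells and FAPs, 21 of the 40 reached 50 CPM in each tissue. In quadriceps 1 was called higher in smooth muscle cells and 15 lower, where 18.3% of all genes were called higher and 31.8% lower. In diaphragm 3 were higher and 12 lower, beside 20.5% and 32.2% of all genes. Cspg4 (NG2, a mural cell proteoglycan that binds PDGF-A) was higher, at 275 against 34.3 CPM in quadriceps (8.04-fold, 7.48 to 8.64) and 290 against 12.8 CPM in diaphragm (22.6-fold, 18.5 to 27.6). In diaphragm Gab1, an adaptor of receptor tyrosine kinases, had a ratio of 2.96 (1.93 to 4.36) and Ptpn11, the SHP2 phosphatase, 2.04 (1.49 to 2.72).

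Genes listed under ligand processing and binding made up 8 of the 15 lower in quadriceps smooth muscle cells, of 9 at that level, and 7 of the 12 in diaphragm. Pcsk5 and Pcsk6, proprotein convertases, were at 0.537 and 4.18 CPM in quadriceps smooth muscle cells and at 77.3 and 397 CPM in FAPs, 144-fold (75.7 to 315) and 94.97-fold (75.1 to 122) lower. Plau, the urokinase that activates PDGF-D, was 54.0-fold (35.6 to 86.4) lower, and Pdgfrl 105-fold (61.2 to 197) lower. Pdgfrl had 0 UMIs in diaphragm smooth muscle cells and 8111 in FAPs, at least 50.4-fold lower. Plat, the tissue plasminogen activator that cleaves PDGF-C, named for that role after its values were seen, was at 73.1 against 206 CPM in quadriceps (2.82-fold lower, 2.65 to 3.00) and at 55.1 against 329 CPM in diaphragm (5.98-fold lower, 4.10 to 9.07).

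Of the transducers, 4 of 9 were lower in quadriceps and 3 of 9 in diaphragm, shares near the 31.8% and 32.2% of all genes. The Src-family kinase Fyn was 62.0-fold (46.8 to 83.9) lower in quadriceps smooth muscle cells, and the adaptor Nck1 was 8.33-fold (7.14 to 9.77) lower. Of the 3 negative regulators at that level, 3 were lower in quadriceps and 2 in diaphragm, beside the same shares of all genes, and Socs3 had 371 against 429 CPM in diaphragm (ratio 0.865, 0.743 to 1.00). Spry1, a feedback inhibitor of receptor tyrosine kinases, was 21.6-fold (18.2 to 25.8) lower there and 39.5-fold (10.9 to 327) lower in diaphragm, where it had 2 UMIs. The 3 related receptors Kit, Csf1r and Flt3 did not reach 50 CPM in FAPs or smooth muscle cells.

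The genes most like each member over the 14 class and tissue sums of at least 20 cells were named by Pearson's r of log2(CPM + 1), as a description in which sums of the same library share depth. Pdgfra was most like Smoc2 (r = 0.931), Clec3b (0.925) and Ptges (0.919), and Pdgfrb most like Mrgprf (0.956), Gpc6 (0.955) and Aspn (0.953). Among the ligands, Pdgfc was most like Crispld2 (0.987), Mrgprf (0.983) and Gpc6 (0.964), so that Mrgprf and Gpc6 were near both Pdgfrb and Pdgfc. Pdgfd was most like Meis2 (0.959), Kazald1 (0.946) and Igfbp3 (0.938). Pdgfa was most like 1810011O10Rik (0.951) and Tmem246 (0.934), and Pdgfb most like Api5 (0.906), Ccrl2 (0.865) and Nrarp (0.825). The genes compared numbered 6933, or 6934 for Pdgfc, and many of the sums of Pdgfb, Pdgfc and Pdgfd were at or near 0 UMIs.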

How the data were processed

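Mononuclear cells of mouse quadriceps and diaphragm, freed by collagenase and dispase, were run as 1 droplet library each on 10x 3′ chemistry. The deposited values were raw UMI counts per gene and barcode. The submitters' notes name Cell Ranger (3.0.0), Seurat and GRCm38 (mm10), and the matrices deposited by the authors hold unnormalised counts. All deposited barcodes were used: 5159 with 50854519 UMIs (quadriceps) and 2499 with 28545242 UMIs (diaphragm), of which 56.9% and 33.1% had over 5% mitochondrial UMIs. Limits of 5% mitochondrial UMIs, 1000 UMIs and 3 median absolute deviations, an alternative, would leave 2171 and 1662. The libraries shared 5 barcode sequences.

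Classes came from raw UMI gates. A barcode that met several gates, or none, was left out of the classes. All classes but FAPs, tenocytes and mesothelial cells also needed under 50 Dcn UMIs. A barcode that met such a gate but not this Dcn limit was left unclassed. No doublet caller was used for the main results. Counts were summed per class and tissue and divided by the UMIs of the class (CPM). Intervals at 95% were exact Poisson for a level, exact conditional binomial for a ratio and Clopper-Pearson for a share. A count of 0 allowed up to 3 counts. A gene was called past 2-fold with at least 50 CPM in the higher group, a rule of size and not a test, and classes under 20 cells got no ratio. Shares used cells thinned to 1000 UMIs, with shallower cells left out (0 FAPs, 7 quadriceps smooth muscle cells). Carry-over was reckoned from Dcn of FAPs and Myh11 of smooth muscle cells, genes of their own gates, as a description. Named were the members, gate and check markers, up to 4 pathway genes per comparison and direction with the largest fold, and the 3 genes most like each member, of which 1 is not reported here. The members and lists were chosen with earlier results of these data known. Gene positions are GENCODE M21 and upstream windows RefSeq GRCm38.p6. Scripts used Python 3.11.15, numpy 2.4.6, scipy 1.17.1, pandas 2.3.3 and scanpy 1.11.5, and were tested on simulated data. Alternatives were other gates, barcode filters, scalings, weights, a pseudocount, Scrublet and other thinning.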

Additional observations from a re-analysis of the deposited data

Results flagged for a closer look

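Pdgfc differed in direction between cell classes: diaphragm over quadriceps, its ratio was 0.534 in FAPs and 2.38 in smooth muscle cells, where the interval (1.00 to 4.85) rests on 8 diaphragm UMIs. Pdgfra in FAPs of the Prg4 and Clu group, against FAPs in no group, had a ratio of 1.16 in quadriceps and 0.817 in diaphragm. In both cases each side's interval of counting error excluded 1 while the difference itself was not tested, since each tissue had 1 library.

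Barcodes left unclassed, 589 in quadriceps and 258 in diaphragm, also held PDGF members, above the limit of 3 counts. They met no gate or failed the Dcn limit of the gate they met. In quadriceps they had 195 CPM of Pdgfra, 82.9 CPM of Pdgfrb, 65.6 CPM of Pdgfa, 5.97 CPM of Pdgfb, 8.35 CPM of Pdgfc and 15.5 CPM of Pdgfd. In diaphragm they had 524 CPM of Pdgfra, 152 CPM of Pdgfrb, 14.2 CPM of Pdgfa, 8.52 CPM of Pdgfb, 7.10 CPM of Pdgfc and 8.52 CPM of Pdgfd. Their median depths were 2260 and 2195 UMIs.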

How the results depend on the processing

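Of 271 values recomputed under an alternative, 226 stayed within the interval of the value reported (or within 1.5 times a count), 45 moved beyond it and 0 called values changed sign, while values not called changed sign for Pdgfd and Pdgfrb between tissues and for Pdgfc of the Pi16 and Dpp4 group. Among the 118 values of the main results 30 moved, and among the other 153 values 15 moved. No paired analysis was possible because each tissue had 1 library and the labels give no replicate numbers, and so no replicate was left out.

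Diaphragm over quadriceps in FAPs, the log2 ratio was 0.16 for Pdgfra and 0.29 for Pdgfrb under median-of-ratios scaling (0.07 and 0.19 as reported). With barcodes within the mitochondrial and UMI limits it was -0.078 for Pdgfd, against 0.17. With barcodes over 5% mitochondrial UMIs alone, an alternative chosen after seeing the data, it was 0.16 for Pdgfra, -0.0050 for Pdgfrb, 0.29 for Pdgfa and 1.43 for Pdgfd. Smooth muscle cells over FAPs in quadriceps, the log2 ratios of Pdgfrb and Pdgfa were 0.65 and 4.37 without mitochondrial UMIs, 0.76 and 4.48 under median-of-ratios scaling, and 0.13 and 3.42 over 5% mitochondrial UMIs (0.42 and 4.14 as reported). In diaphragm that of Pdgfrb was 1.09 without mitochondrial UMIs and 1.06 under median-of-ratios scaling (0.81 as reported), both past 2-fold. Within the mitochondrial limit fewer than 20 smooth muscle cells were left, so no ratio was formed. Endothelial cells of quadriceps, 44 of 55 of them over the limit, also fell below 20. Of the members, 2 of 6 kept their highest quadriceps class (Pdgfra and Pdgfc, in FAPs). Pdgfrb and Pdgfa had been highest in smooth muscle cells and Pdgfb and Pdgfd in endothelial cells. With those classes left out of the order, their highest class could not be checked. With at least 10 UMIs in place of 50 CPM, genes past 2-fold numbered 2116 in place of 225 between tissues in FAPs. Between classes they numbered 6755 and 7470 in place of 1879 and 1937 in quadriceps and diaphragm. The 50 CPM rule took in 3305, 3749 and 3675 genes in these comparisons. The 10 UMI rule took in more, so the counts do not share a denominator.

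Shares of FAPs with a UMI of Pdgfra at 2000 UMIs were 60.2% and 64.1%, and unthinned 94.0% and 97.8%, in quadriceps and diaphragm. Those of Pdgfrb were 20.3% and 21.3%, and unthinned 65.4% and 75.7%. For the Pi16 and Dpp4 group the quadriceps log2 ratio of Pdgfra was -0.67 at 10 UMIs per 10000 and -0.71 with overlap allowed (-0.55 as reported), and the diaphragm ratio of Pdgfc with overlap 0.77 (-0.25 as reported). For the Tnmd and Thbs4 group that of Pdgfra in quadriceps was -1.22 with overlap (-1.80 as reported). The causes of these shifts were not tested. Scrublet called 95 quadriceps and 3 diaphragm barcodes.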
